A study of Saccharomyces cerevisiae with 57 samples.

Results

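The silent mating loci HML and HMR lie near opposite ends of chromosome III of Saccharomyces cerevisiae and carry the genes HMLALPHA1, HMLALPHA2, HMRA1 and HMRA2. They were taken as the windows chrIII:10501-15500 (HML) and chrIII:291501-296000 (HMR) of sacCer3 and divided into 50-bp bins, which gave 190 bins (100 at HML and 90 at HMR) of 240634 nuclear bins outside the ribosomal DNA. The 4 silencers were taken as the annotated replication origins ARS301 (HML-E), ARS302 (HML-I), ARS317 (HMR-E) and ARS318 (HMR-I), each with 100 bp on either side. Cleavage by micrococcal nuclease (MNase) fused to Rap1, Abf1 or Reb1 was compared at these elements with cleavage by free MNase.

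HML and HMR hold complete but silent copies of the mating-type genes, which serve as donors of sequence for the expressed locus MAT. Silencing is set up by the E and I silencers, short elements that bind the origin recognition complex together with Rap1, Abf1 or both, and that recruit the Sir proteins, which spread over the genes between them. Rap1 and Abf1 are abundant general regulatory factors that also act at many promoters, and Reb1 is another such factor that is not known as a silencer protein.

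In ChEC-seq, cells are permeabilized with digitonin, calcium is added to activate the tethered nuclease, and the small DNA fragments released are sequenced from both ends. The 57 libraries comprised 56 ChEC-seq libraries and 1 Abf1 MNase-X-ChIP-seq library. The strains were RAP1-3FLAG-MNase-kanMX6, ABF1-3FLAG-MNase-kanMX6, the genotype that the labels also give for the X-ChIP-seq library, REB1-3FLAG-MNase-kanMX6, a strain with an N-terminal fusion on a plasmid (pRS413-P_REB1-MNASE-3FLAG-REB1), and the free MNase strain ura3::P_REB1-3FLAG-MNase-NLS-URA3. All carried the background W1588-4C, which is MATa and congenic to W303-1A except that it is RAD5+, and Abf1 and Reb1 fusions with a shortened linker were also sequenced. Free MNase was driven by the REB1 promoter, so its abundance need not match that of Rap1 or Abf1. At 30 s each of Rap1, Abf1 and Reb1 had 3 replicates and free MNase had 1 library, and every other condition was a single library.

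The unit below is the ppm, the number of fragment ends for every 1000000 nuclear ends outside the ribosomal DNA in the library, so that every library averages 4.16 ppm per 50-bp bin over the genome. The 9 Rap1, Abf1 and Reb1 libraries at 30 s held 4463859 to 8653897 such ends and free MNase at 30 s held 5020913. The labels place replicate 1 of Rap1 and Abf1 in a sequencing run with replicates 2 and 3 of Reb1, replicates 2 and 3 of Rap1 and Abf1 in another, and replicate 1 of Reb1 with free MNase in another. Run and strain therefore cannot be told apart between free MNase and Rap1 or Abf1. The labels do not say whether replicates came from separate cultures, so that the p-values measure only the spread between these libraries, which may be technical.

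The sequences of the silencers are shown because the cleavage maxima described below lie beside matches to the Rap1 and Abf1 consensus sequences. Capitals mark the match with the fewest mismatches to the Rap1 consensus at HML-E and HMR-E and each full match to the Abf1 consensus. All sequences are the plus strand of the reference (R64, as used for sacCer3), from RefSeq.

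HML-E, chrIII:11151-11401, ARS301 without its first bases: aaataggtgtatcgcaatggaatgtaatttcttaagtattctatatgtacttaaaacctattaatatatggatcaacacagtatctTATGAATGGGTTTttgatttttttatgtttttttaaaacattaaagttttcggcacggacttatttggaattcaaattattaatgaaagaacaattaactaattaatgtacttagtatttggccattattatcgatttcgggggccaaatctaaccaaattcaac
HML-I, chrIII:14575-14849, ARS302: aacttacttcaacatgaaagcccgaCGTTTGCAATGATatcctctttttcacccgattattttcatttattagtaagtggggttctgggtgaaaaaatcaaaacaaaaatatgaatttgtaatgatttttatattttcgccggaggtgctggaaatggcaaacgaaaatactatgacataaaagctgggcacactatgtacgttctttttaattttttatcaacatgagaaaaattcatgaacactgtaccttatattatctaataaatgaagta
HMR-E, chrIII:292538-292794, ARS317 with its flanks, Rap1 match first and Abf1 match second: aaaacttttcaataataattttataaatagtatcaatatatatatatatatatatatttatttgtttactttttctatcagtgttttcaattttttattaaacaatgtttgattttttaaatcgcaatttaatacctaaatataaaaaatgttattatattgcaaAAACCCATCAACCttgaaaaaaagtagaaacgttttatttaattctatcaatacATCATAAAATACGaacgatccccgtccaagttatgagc
HMR-I, chrIII:294720-295001, ARS318 with its flanks: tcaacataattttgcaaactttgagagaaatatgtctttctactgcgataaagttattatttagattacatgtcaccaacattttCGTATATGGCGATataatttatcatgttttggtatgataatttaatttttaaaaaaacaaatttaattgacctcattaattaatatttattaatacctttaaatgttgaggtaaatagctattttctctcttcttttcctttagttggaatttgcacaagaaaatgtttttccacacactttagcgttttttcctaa

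The Rap1 match of HML-E, on the minus strand at 11237 to 11249, had 2 mismatches, and 6.75% of all nuclear windows of 456 bp held a match as close. HMR-E had a Rap1 match on the plus strand at 292703 to 292715 with 3 mismatches (26.5% of windows of 257 bp) and a full Abf1 match on the plus strand at 292757 to 292769 (3.41%). HML-I and HMR-I each had a full Abf1 match on the minus strand, at 14600 to 14612 (6.30% of windows of 475 bp) and 294805 to 294817 (3.74% of windows of 282 bp), and their closest Rap1 matches had 3 and 4 mismatches (43.7% and 86.9% of windows). The ARS consensus, the sequence recognised by the origin recognition complex, was matched in full at HML-E, HML-I and HMR-E and with 1 mismatch at HMR-I (2.85%, 2.97%, 1.59% and 25.4% of windows). The Reb1 core TTACCCG was not matched in full at any of the silencers on either strand. The closest matches to it had 3, 1, 2 and 2 mismatches at HML-E, HML-I, HMR-E and HMR-I (100%, 48.5%, 98.2% and 98.8% of windows).

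Outside the silencers, 3 further matches lay beside cleavage maxima, and each is printed with 8 bases on either side, the match in capitals.
Rap1 match between HMLALPHA2 and HMLALPHA1, chrIII:13118-13146: acattaatGATGTCTGGGTTTtgtttggg
Abf1 match between HMLALPHA1 and HML-I, chrIII:14122-14150: tttactttCGTATTTAAGGATgtgtatac
Abf1 match just past HMRA1, chrIII:294317-294345: aataaattCGTTTTCAATGATtaaaatag
The Rap1 match had 2 mismatches, and 3.90% of windows of 263 bp held a match as close. The Abf1 match before HML-I had 1 mismatch, which 86.7% of windows of 765 bp equal, whereas the Abf1 match past HMRA1 was full, as in 6.59% of windows of 498 bp.

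Much of both loci is repeated in the reference, and the positions of fragments there are not those of a single locus. Of the 190 bins, 90 were unique at every position for a read of 25 bases, 34 at HML and 56 at HMR. No position of HMLALPHA1, HMLALPHA2, HMRA2 or the gap between the 2 alpha genes was unique. A segment of 758 bp at HML, from 12944 to 13701, occurs a second time only at MAT in the reference, which is the alpha allele, and 608 bp from 12336 to 12943 occur at HML, HMR and MAT. Over the 56 ChEC-seq libraries 26589 ends were placed at the HML copy of the 758-bp segment and 26260 at the MAT copy, a share of 50.3%, and the 95% Clopper-Pearson interval held 50% in 50 libraries, the others including 4 Abf1 libraries at 55.3% to 59.2%. Fragments that reached from the alpha sequence into unique sequence numbered 275 at HML and 0 at MAT. These MATa strains lack the alpha sequence at MAT, so the ends placed there come from HML. Levels given below for the alpha genes and the alpha gap count only ends placed at HML. For the gap and for HMLALPHA1 from 13282 to 13701 they thus leave out ends of HML, and sums over both placements are given there. HMLALPHA2 up to 12943 lies in the sequence common to HML, HMR and MAT, so its level may hold ends of HMR and MAT too. HMRA1 with the bins from 293751 to 294350, which include the Abf1 match just past the gene, was unique in the reference, but these MATa strains carry the a sequence at MAT too, so that HMR and MAT cannot be told apart there. Levels in that stretch may hold ends of both copies. The printed Rap1 match of HML-E, HML-I, HMR-I and the other printed Abf1 matches were in unique sequence, and 96.9% of positions of HMR-E with its flanks were unique. Of HML-E with its flanks 60.7% of positions were unique, and of ARS301 itself 68.75%. The bins 11151 to 11200 and 11201 to 11250 within it were not unique at every position. The sequence to its left, in VBA3, has other copies in the genome.

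The profiles of Rap1 and Abf1 at HML at 30 s differed from each other in position. Rap1 cleavage was highest at HML-E and in the gap between the alpha genes, and Abf1 cleavage was highest at HML-I and in the sequence before it. Of 100 bins, 8 had a mean of at least 30 ppm with Rap1 and 12 with Abf1, and none with Reb1 or free MNase. The share of all nuclear bins that reach 30 ppm was not counted. For scale, 2.33% of them had a Rap1 mean of 22.6 ppm or more, and 0.930% a free MNase level of 12.3 or more. A count of none with free MNase would thus be usual elsewhere too. The Rap1 libraries placed 50% of their HML ends in 9, 7 and 7 bins, the Abf1 libraries in 7, 8 and 7, the Reb1 libraries in 24, 14 and 16, and free MNase in 31. At HMR, 13 of 90 bins reached 30 ppm with Abf1, and none did with Rap1, Reb1 or free MNase. There the corresponding numbers of bins were 16, 14 and 14 with Rap1, 11, 10 and 9 with Abf1, 20, 21 and 19 with Reb1, and 26 with free MNase. Cleavage by Rap1, Abf1 and Reb1 was thus gathered in fewer bins than in the 30 s free MNase library, in every replicate at both loci. This need not be particular to the loci, since the measure was not computed over the genome. There the median bin had 0.399 ppm with Rap1, 0.617 with Abf1 and 0.686 with Reb1, against 3.78 with free MNase, at the same mean of 4.16. Free MNase itself ranged over the times other than 20 s, from 18 bins (10 s) to 33 (60 s) at HML. At HMR it ranged from 17 (10 s) to 28 (60 s). Pearson's r between replicates over the 190 bins, which share sequence composition and within each pair the strain, was 0.92 to 0.95 for Rap1, 0.96 to 0.97 for Abf1 and 0.79 to 0.87 for Reb1.

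**Figure D1:**
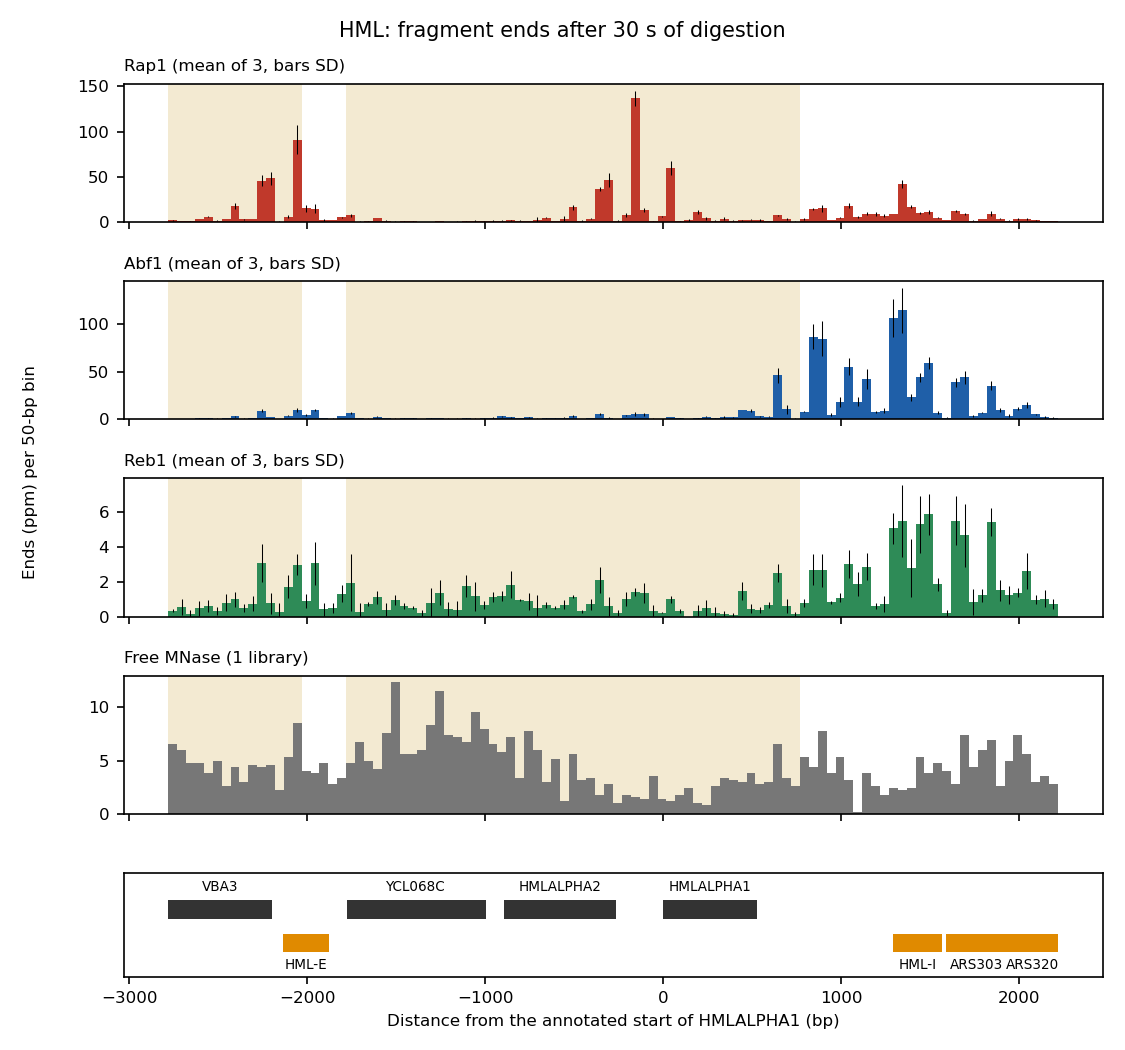
Ends in ppm in 50-bp bins over the HML window at 30 s, one panel each for Rap1, Abf1 and Reb1 (mean of 3 replicates) and free MNase (1 library), against distance from the annotated start of HMLALPHA1 in bp; thin bars are SD and shaded bins are not unique at every position. Rap1 reaches 137 ppm between the alpha genes and 91.2 at HML-E, Abf1 reaches 115 at HML-I, and no bin of Reb1 exceeds 5.85 or of free MNase 12.3.

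**Figure D2:**
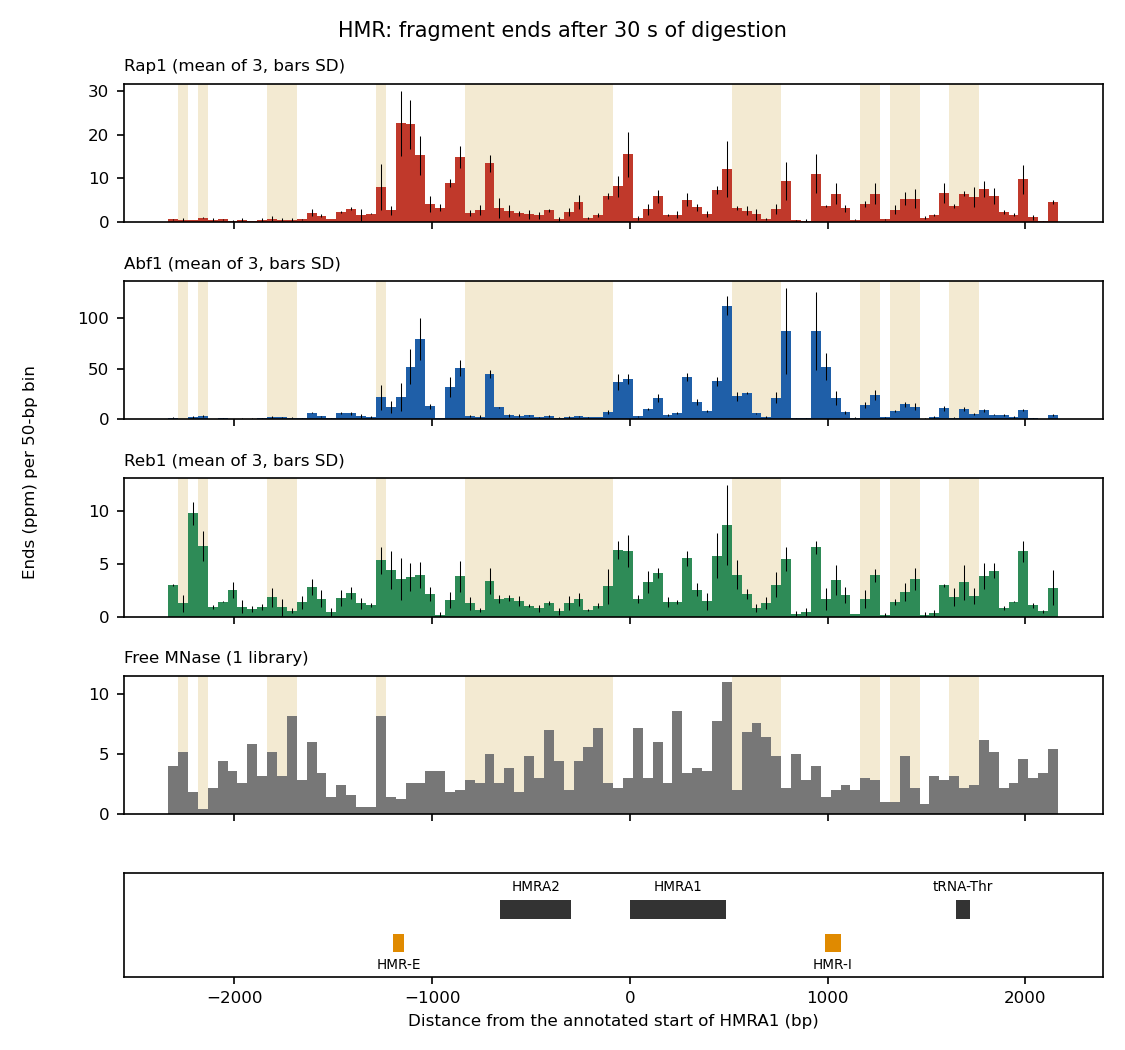
Ends in ppm in 50-bp bins over the HMR window at 30 s, one panel each for Rap1, Abf1 and Reb1 (mean of 3 replicates) and free MNase (1 library), against distance from the annotated start of HMRA1 in bp; thin bars are SD and shaded bins are not unique at every position. Abf1 reaches 112 ppm at the end of HMRA1, where HMR and MAT cannot be told apart, 79.1 at HMR-E and 87.1 at HMR-I, and the highest Rap1 bin, at HMR-E, has 22.6.

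The comparison of single bins used limma's moderated test on log2(ppm + 0.5), fitted over all 122530 nuclear bins with a mean of at least 1, with Benjamini-Hochberg adjustment, and a bin was called at an adjusted p under 0.05 and a log2 difference of at least 1. Of the 190 bins 176 passed the filter. In Rap1 minus Abf1, 23 of the 176 bins were called higher (13.1%, against 10.5% of all bins tested) and 66 lower (37.5%, against 32.9%). Both shares were near those of the genome, and the locus differed in where the calls fell: the 23 higher bins were all at HML, from VBA3 to HMLALPHA1, and the lower bins were 23 at HML and 43 at HMR. Only 2 of the 23 higher bins were unique, whereas 46 of the 66 lower bins were. With libraries scaled to an equal median bin the split was 40 higher and 36 lower (21.4% and 23.6% of all bins tested on that scale), and with the authors' scale it was 18 and 87 (5.64% and 35.8%). The median log2 difference was -0.60 over the 176 bins and -0.51 over all bins tested.

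Against Reb1, the calls at both loci were one-sided. In Rap1 minus Reb1, 79 of 176 bins were called higher (44.9%, against 12.3% of all bins) and 4 lower (2.27%, against 25.4%). In Abf1 minus Reb1, 113 were called higher (64.2%, against 24% of all bins) and 4 lower (2.27%, against 15.3%). All bins called lower in either comparison lay between 291501 and 291850, in the Ty1 long terminal repeat at the left edge of the HMR window or just past it. The median log2 difference over the 176 bins was 0.81 in Rap1 minus Reb1 and 1.34 in Abf1 minus Reb1, against -0.34 and 0.16 over all bins.

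Against free MNase the counts depended on the scale. Over the genome the median bin had 0.399 ppm with Rap1, 0.617 with Abf1 and 0.686 with Reb1, against 3.78 with free MNase. These comparisons rest on 1 free MNase library, which was assumed to vary like the others and is shared by all of them. In Rap1 minus free MNase 48 of 176 bins were called higher (27.3%, against 10.7% of all bins) and 51 lower (29%, against 58.4%). In Abf1 minus free MNase 66 were called higher (37.5%, against 18%) and 43 lower (24.4%, against 42.6%). In Reb1 minus free MNase 7 were called higher (3.98%, against 12.9%) and 91 lower (51.7%, against 46.6%). Scaled to an equal median bin, the higher and lower counts were 99 and 3 for Rap1 (32.7% and 6.46% of all bins tested on that scale), 86 and 6 for Abf1 (35.7% and 7.87%), and 26 and 22 for Reb1 (30% and 5.76%). On the authors' scale they were 30 and 80 for Rap1 (5.28% and 79.1%), 64 and 57 for Abf1 (11.9% and 60.9%), and 3 and 133 for Reb1 (6.27% and 71.6%). Without replicates 1, 2 or 3 of Reb1 the 7 higher bins became 12, 4 and 4. Median log2 differences over the 176 bins were -0.04, 0.18 and -1.21 for Rap1, Abf1 and Reb1 minus free MNase, against -1.44, -0.84 and -1.02 over all bins.

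HML-E, the silencer with the close Rap1 match, was cleaved most by Rap1. With its flanks it had 17.2, 24.1 and 20.6 ppm per 50 bp in the Rap1 libraries, 3.73, 4.16 and 4.81 in the Abf1 libraries, 1.27, 1.42 and 1.30 in the Reb1 libraries, and 4.37 (95% interval 3.78 to 5.02, counting error only) with free MNase. The Rap1 libraries lay above all others, and the Abf1 libraries lay around the free MNase library and above the Reb1 libraries. The means were 20.6 ± 3.47 for Rap1, 4.23 ± 0.546 for Abf1 and 1.33 ± 0.083 for Reb1 (SD, n = 3 libraries each). The log2 difference Rap1 minus Abf1 was 2.15 (SE 0.17, exact permutation p = 0.1, two-sided, the smallest that 3 against 3 allows), and it was 2.06 with 1 library each in one run and 2.19 with 2 each in the other. The highest bin, 11201 to 11250, had 73.1, 105 and 95.4 ppm with Rap1, 8.09, 8.94 and 12.2 with Abf1, 2.31, 3.14 and 3.48 with Reb1, and 8.56 with free MNase. Not every position of this bin is unique in the reference. Its Rap1 libraries did not overlap any other, with a log2 difference Rap1 minus Abf1 of 3.17 (SE 0.29, limma adjusted p = 1.79e-12) and Rap1 minus free MNase of 3.32 (SE 0.41, limma adjusted p = 1.42e-08). The bin was picked for its Rap1 level in these libraries, and the p-values do not allow for that. The bins 11001 to 11050 and 11051 to 11100 at the end of VBA3, in sequence that occurs elsewhere too, also had 45.9 ± 6.21 and 48.5 ± 7.17 ppm with Rap1, against 8.98 ± 1.53 and 2.50 ± 0.35 with Abf1 (SD, n = 3 libraries each).

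HML-I, with a full Abf1 match, was cleaved most by Abf1 and next by Rap1. With its flanks it had 13.8, 13.04 and 11.96 ppm per 50 bp in the Rap1 libraries, 45.1, 36.7 and 47.6 in the Abf1 libraries, 2.47, 3.89 and 4.07 in the Reb1 libraries, and 3.23 (95% interval 2.74 to 3.78) with free MNase. No Rap1 library overlapped an Abf1 or a Reb1 library, and free MNase lay within the range of Reb1. The means were 12.9 ± 0.938 for Rap1, 43.1 ± 5.75 for Abf1 and 3.48 ± 0.876 for Reb1 (SD, n = 3 libraries each), and the log2 difference Rap1 minus Abf1 was -1.69 (SE 0.13, exact permutation p = 0.1), or -1.67 and -1.70 within the 2 runs. The bin 14601 to 14650, the highest of Abf1 at HML, had 46.2, 41.8 and 38.1 ppm with Rap1, 135, 88.4 and 121 with Abf1, 3.16, 6.05 and 7.16 with Reb1, and 2.19 with free MNase. Rap1 cleavage there lay between Abf1 and Reb1 in every library, with log2 differences of -1.42 for Rap1 minus Abf1 (SE 0.29, limma adjusted p = 7.7e-05), 3.98 for Rap1 minus free MNase (SE 0.41, limma adjusted p = 2.39e-10) and 5.40 for Abf1 minus free MNase (SE 0.41, limma adjusted p = 9.61e-14). These p-values do not allow for the choice of the bin by its Abf1 mean in the same libraries. In the neighbouring bin 14551 to 14600, on the other side of the Abf1 match, Rap1 had 8.91, 8.98 and 8.94 ppm and Abf1 had 115, 84.0 and 122. The log2 difference Rap1 minus Abf1 in that bin was -3.49 (SE 0.28, limma adjusted p = 6.75e-14), so that the 2 sides of the match were cleaved nearly alike by Abf1 and unequally by Rap1.

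HMR-E, which holds matches for both factors, was cleaved by both, and more by Abf1. With its flanks it had 9.97, 17.5 and 13.6 ppm per 50 bp in the Rap1 libraries, 26.6, 30.1 and 48.1 in the Abf1 libraries, 2.53, 4.53 and 4.97 in the Reb1 libraries, and 3.10 (95% interval 2.46 to 3.86) with free MNase. The 3 Rap1, Abf1 and Reb1 groups did not overlap, with means of 13.7 ± 3.77, 34.9 ± 11.5 and 4.01 ± 1.30 (SD, n = 3 libraries each). The log2 difference Rap1 minus Abf1 was -1.30 (SE 0.34, exact permutation p = 0.1), or -1.37 and -1.27 within the runs. The annotated ARS317 alone, a stretch of 57 bp that ends before both matches, had 3.63, 13.1 and 9.19 ppm per 50 bp with Rap1 and 5.78, 8.17 and 21.0 with Abf1, which overlapped (exact permutation p = 0.7). Likewise in the bin 292651 to 292700, the highest of Rap1 at HMR, Rap1 had 14.3, 28.7 and 24.7 ppm and Abf1 had 18.6, 10.8 and 37.1 (log2 difference 0.14, SE 0.37, limma adjusted p = 0.777). In the bin 292751 to 292800, which holds the Abf1 match, Rap1 had 15.6, 19.6 and 10.5 ppm, Abf1 had 74.0, 61.4 and 102, Reb1 had 3.28, 3.14 and 5.32, and free MNase had 2.59. Abf1 stood above Rap1 in that bin in every library, with a log2 difference Rap1 minus Abf1 of -2.35 (SE 0.30, limma adjusted p = 1.1e-08).

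HMR-I, with a full Abf1 match and no close Rap1 match, was cleaved most by Abf1. With its flanks it had 3.95, 5.19 and 4.16 ppm per 50 bp in the Rap1 libraries, 17.9, 33.7 and 38.6 in the Abf1 libraries, 2.03, 2.90 and 2.61 in the Reb1 libraries, and 2.19 (95% interval 1.68 to 2.81) with free MNase. No groups of Rap1, Abf1 and Reb1 overlapped, with means of 4.43 ± 0.663, 30.1 ± 10.8 and 2.51 ± 0.445 (SD, n = 3 libraries each). The log2 difference Rap1 minus Abf1 was -2.57 (SE 0.35, exact permutation p = 0.1). Abf1 replicate 1, from another run than replicates 2 and 3, was the lowest of its group, and the difference was -2.05 within its run and -2.83 within the other. The bin 294751 to 294800 had 5.89, 14.0 and 13.1 ppm with Rap1, 43.1, 104 and 114 with Abf1, 5.96, 7.17 and 6.54 with Reb1, and 3.98 with free MNase. Replicate 1 was again the lowest for both Rap1 and Abf1, and the log2 difference Rap1 minus Abf1 was -2.90 (SE 0.33, limma adjusted p = 6.28e-10). The bin 294601 to 294650, between HMRA1 and HMR-I, followed the same order, with 4.46, 12.9 and 10.6 ppm with Rap1 and 38.4, 105 and 118 with Abf1.

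**Figure D3:**
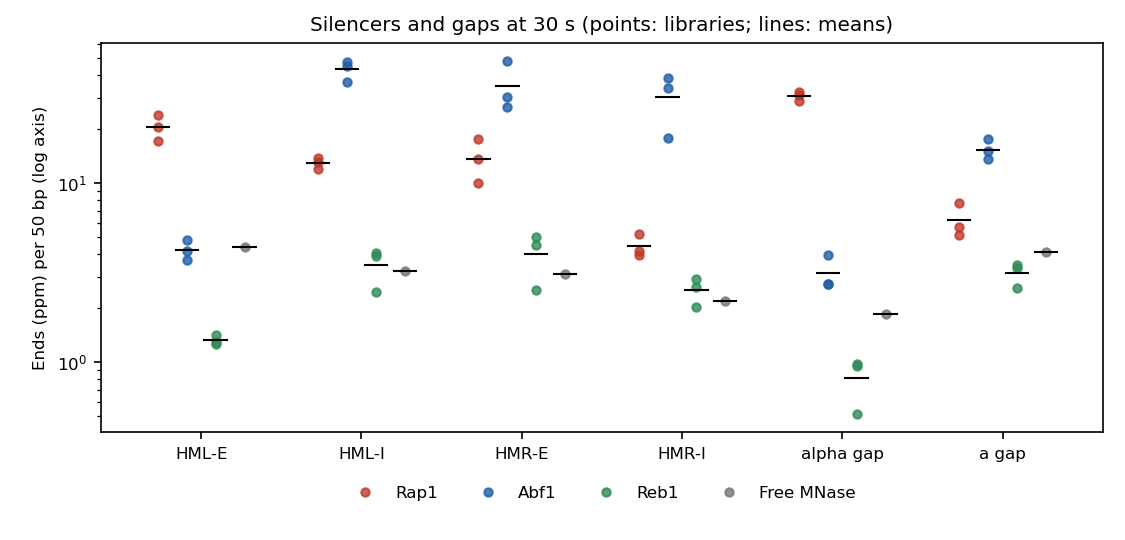
Ends in ppm per 50 bp at 30 s at the 4 silencers with flanks and in the gaps between the alpha genes (alpha gap) and between the a genes (a gap), on a log axis, with a point for each library of Rap1, Abf1, Reb1 and free MNase and a line at each mean. Rap1 lies above Abf1 at HML-E and in the alpha gap, and below it at HML-I, HMR-E and HMR-I.

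Set beside the 343 other annotated ARS elements, HML-E, HML-I and HMR-E stood high for Rap1, and HML-I, HMR-E and HMR-I for Abf1. Counted by the highest bin with flanks, 25 of the 343 (7.29%) reached HML-E, 30 (8.75%) HML-I, 38 (11.1%) HMR-E and 59 (17.2%) HMR-I in the Rap1 mean. The highest Rap1 bin of HML-E is not unique at every position. In the Abf1 mean 148 (43.1%) reached HML-E, 22 (6.41%) HML-I, 32 (9.33%) HMR-E and 30 (8.75%) HMR-I. In the Reb1 mean the numbers were 245, 141, 157 and 124, and with free MNase they were 60, 267, 72 and 327. The median of the other elements was 3.51 ppm with Rap1, 7.98 with Abf1, 4.96 with Reb1 and 6.37 with free MNase. Beyond HML-I lie ARS303 and ARS320, and ARS303 had means of 6.07, 20.8, 2.89 and 5.08 ppm per 50 bp with Rap1, Abf1, Reb1 and free MNase.

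The gap between HMLALPHA2 and HMLALPHA1, the divergent promoter of the genes for the alpha2 repressor and the alpha1 activator, carried the highest Rap1 cleavage of either locus. Rap1 is known to activate this promoter at MAT, where these MATa strains lack it. The HML copy of the gap had 28.7, 32.1 and 30.9 ppm per 50 bp in the Rap1 libraries, 2.75, 2.73 and 3.98 in the Abf1 libraries, 0.948, 0.511 and 0.972 in the Reb1 libraries, and 1.86 (95% interval 1.37 to 2.45) with free MNase. Rap1 stood above every other library, with means of 30.6 ± 1.74 for Rap1, 3.15 ± 0.719 for Abf1 and 0.810 ± 0.259 for Reb1 (SD, n = 3 libraries each), and a log2 difference Rap1 minus Abf1 of 3.11 (SE 0.16, exact permutation p = 0.1), or 3.17 and 3.07 within the runs. Summed over the HML and MAT copies, the levels were 60.3 ± 3.96 for Rap1, 5.75 ± 0.840 for Abf1, 1.47 ± 0.387 for Reb1 (SD, n = 3 libraries each) and 3.79 for free MNase.

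Within the gap, the bin 13101 to 13150 had 128, 144 and 140 ppm with Rap1, 5.20, 4.47 and 8.18 with Abf1, 1.22, 1.34 and 1.64 with Reb1, and 1.59 with free MNase. This was the highest Rap1 bin of HML, and 0.445% of all nuclear bins had a Rap1 mean as high. The log2 difference was 4.45 for Rap1 minus Abf1 (SE 0.29, limma adjusted p = 1.74e-16) and 6.03 for Rap1 minus free MNase (SE 0.41, limma adjusted p = 2.65e-15). Since the bin was picked for its Rap1 mean in these libraries, the p-values do not allow for that choice. A further 133 ± 8.56 ppm of Rap1 ends were placed at the MAT copy of the bin in the reference (SD, n = 3 libraries). These strains lack that copy, so the level, rank and log2 differences of the bin leave out those ends of HML. Rap1 cleavage flanked the gap as well, with 46.6 ± 7.37 ppm in the bin 12951 to 13000 in HMLALPHA2 and 60.0 ± 8.07 in the bin 13301 to 13350 in HMLALPHA1, against 1.68 ± 0.79 and 2.64 ± 0.34 with Abf1 (SD, n = 3 libraries each).

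The 2 alpha genes were cleaved most by Rap1. HMLALPHA1 had 8.89, 9.49 and 9.35 ppm per 50 bp with Rap1, 3.45, 3.33 and 3.53 with Abf1, 0.484, 0.424 and 0.445 with Reb1, and 2.21 with free MNase. HMLALPHA2 had 9.80, 10.3 and 9.10 with Rap1, 1.66, 2.04 and 2.079 with Abf1, 0.960, 0.796 and 0.969 with Reb1, and 4.12 with free MNase. Its sequence up to 12943 is common to HML, HMR and MAT, so that its level may hold ends of HMR and MAT. For both alpha genes the Rap1, Abf1 and Reb1 libraries did not overlap, with log2 differences Rap1 minus Abf1 of 1.31 (SE 0.03) and 2.1 (SE 0.09), each with an exact permutation p of 0.1. Summed over the HML and MAT copies, HMLALPHA1 from 13282 to 13701 had 21.6 ± 0.814 ppm per 50 bp with Rap1, 2.98 ± 0.126 with Abf1, 0.653 ± 0.204 with Reb1 (SD, n = 3 libraries each) and 3.98 with free MNase.

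HMRA1, the gene for the a1 repressor, was cleaved most by Abf1. It had 5.15, 3.595 and 3.26 ppm per 50 bp with Rap1, 21.5, 24.9 and 21.7 with Abf1, 2.87, 3.17 and 4.16 with Reb1, and 5.48 with free MNase. The Abf1 libraries lay above all others, with a log2 difference Rap1 minus Abf1 of -2.39 (SE 0.19, exact permutation p = 0.1), whereas Rap1 and Reb1 overlapped (log2 difference 0.20, SE 0.23, exact permutation p = 0.5). HMRA2, which carries sequence common to HML, HMR and MAT, had 2.79, 1.497 and 1.38 with Rap1, 2.79, 3.44 and 2.83 with Abf1, 1.32, 0.902 and 1.14 with Reb1, and 3.90 with free MNase. Its highest Rap1 library lay just under its lowest Abf1 library (log2 difference Rap1 minus Abf1 -0.60, SE 0.27, exact permutation p = 0.1), and the difference was -0.0029 within one run and -0.90 within the other. Over all bins tested the median of this difference was -0.51, so HMRA2 lay near the ordinary bin.

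The gap between HMRA2 and HMRA1 had 7.77, 5.70 and 5.15 ppm per 50 bp with Rap1, 15.0, 17.5 and 13.5 with Abf1, 2.59, 3.37 and 3.49 with Reb1, and 4.10 with free MNase. Abf1 was higher in every library, the reverse of the alpha gap, with a log2 difference Rap1 minus Abf1 of -1.25 (SE 0.20, exact permutation p = 0.1). The highest Abf1 bin of the HMR window in the files was at the end of HMRA1, from 294301 to 294350, in the stretch where HMR and MAT cannot be told apart, so that its level cannot be ranked against those of HMR-E and HMR-I. It had 19.6, 7.72 and 9.08 ppm with Rap1, 108, 123 and 105 with Abf1, 4.62, 9.41 and 12.1 with Reb1, and 11.0 with free MNase, where it was also the highest bin of the window. Abf1 stood above all others there, with log2 differences of -3.27 for Rap1 minus Abf1 (SE 0.32, limma adjusted p = 1.39e-11) and 3.30 for Abf1 minus free MNase (SE 0.45, limma adjusted p = 1.2e-07). This bin too was picked by its Abf1 mean in the same libraries, which the p-values do not allow for. At HML the sequence between HMLALPHA1 and HML-I held a similar maximum, from 14101 to 14150, with 13.9, 15.98 and 13.97 ppm with Rap1, 86.3, 74.3 and 100 with Abf1, 1.82, 3.58 and 2.66 with Reb1, and 4.38 with free MNase (log2 difference Rap1 minus Abf1 -2.53, SE 0.29, limma adjusted p = 7.01e-10).

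At 30 s Reb1 had the lowest mean of the 3 factors at each of the silencers. Its highest bin at HML, 14751 to 14800 in HML-I, had 4.50, 6.497 and 6.54 ppm, below the Rap1 values of 11.0, 13.5 and 9.22 and the Abf1 values of 57.5, 54.4 and 66.4 there. Its highest bin at HMR was 291601 to 291650, in the Ty1 long terminal repeat outside the silencers, where Rap1 had 0.478, 0.539 and 0.559 ppm, Abf1 had 2.43, 3.17 and 0.798, Reb1 had 9.12, 9.18 and 11.0, and free MNase had 1.79. Reb1 was the highest in every library there, with log2 differences of -3.32 for Rap1 minus Reb1 (SE 0.35, limma adjusted p = 1.3e-10) and -2.09 for Abf1 minus Reb1 (SE 0.35, limma adjusted p = 3.7e-06). The bin was picked for its Reb1 mean in these same libraries, so the p-values do not allow for that choice. The tRNA gene YNCC0014W, to the right of HMR where a tRNA gene is known as a barrier to the spread of silencing, had 5.67, 5.90 and 6.22 ppm per 50 bp with Rap1, 6.96, 7.01 and 9.15 with Abf1, 1.42, 3.07 and 3.92 with Reb1, and 2.59 with free MNase. It has no unique position, and the log2 difference Rap1 minus Abf1 of -0.34 turned to 0.33 with libraries scaled to an equal median bin and to 0.026 with identical fragments counted once.

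At base resolution, few ends of the matched factor lay inside the printed matches and more on their sides. Around the Rap1 match of HML-E, the 40 bp beyond its 3′ side had 90.5 ± 16.1 ppm with Rap1, the 13 bp of the match 0.92 ± 0.45 and the 40 bp before its 5′ side 12.3 ± 2.42 (SD, n = 3 libraries). The single highest base was 11232, with 28.8 ± 7.31 ppm, or 15.3% of all Rap1 ends of the element. The Rap1 match of the alpha gap had the same order, with 123 ± 8.36 ppm on its 3′ side, 0.05 ± 0.08 inside and 28.6 ± 2.98 on its 5′ side, and base 13122 alone held 48.0 ± 3.17, or 29.8% of the ends of the gap. At these 2 matches free MNase had 7.37, 1.99 and 3.19, and 1.00, 0.80 and 0.40 ppm, in the same order of sides. Both matches lie on the minus strand, and in both the side with more Rap1 ends was the 3′ side of the consensus. Rap1 matches not printed each had 3 mismatches. With Rap1 their 5′ side, match and 3′ side had 45.8, 12.7 and 34.5 ppm at 11053. The values were 3.73, 1.00 and 1.80 at 14867, and 9.31, 3.55 and 6.17 at 14930. They were 1.42, 1.24 and 6.04 at 13968, and 20.2, 1.74 and 8.57 at 14132. They were 0.93, 0.17 and 2.92 at 13243, and 5.95, 2.20 and 15.0 at 293790.

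The printed Abf1 matches were cleaved by Abf1 on both sides, and those outside the silencers were printed because they lay beside cleavage maxima. Other Abf1 matches, each with 1 mismatch, had lower values. With Abf1 their 5′ and 3′ sides had 4.05 and 0.82 ppm at 13181, and 1.10 and 0.24 at 13260. They had 8.73 and 0.98 at 13816, 5.20 and 23.7 at 294446, and 4.31 and 3.57 at 294504. At HML-I the 40 bp on the 5′ side had 113 ± 22.9 ppm, the match 1.32 ± 0.83 and the 3′ side 106 ± 20.3 with Abf1, whereas with Rap1 they had 41.8 ± 3.63, 0.58 ± 0.46 and 8.83 ± 0.18 (SD, n = 3 libraries each). The highest base of HML-I was 14649 with both factors, at 8.79 ± 0.934 ppm with Rap1 and 16.9 ± 3.57 with Abf1. At HMR-E the 5′ side of the Abf1 match had 95.0 ± 30.7, the match 0.27 ± 0.11 and the 3′ side 41.0 ± 6.28 with Abf1. The Rap1 match of HMR-E lies on that 5′ side, so that the 40 bp between the matches count for both, and the other side of the Rap1 match had 22.8 ± 7.68 ppm with Rap1 and 20.7 ± 11.9 with Abf1. At HMR-I the values with Abf1 were 51.4 ± 13.9, 1.19 ± 0.17 and 81.7 ± 36.6, and at the match past HMRA1 they were 52.1 ± 8.15, 3.23 ± 0.91 and 85.1 ± 15.2. At the match between HMLALPHA1 and HML-I they were 122 ± 25.4, 1.52 ± 0.54 and 48.9 ± 5.67. Free MNase had at most 7.97 ppm on either side of any of these Abf1 matches.

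**Figure D4:**
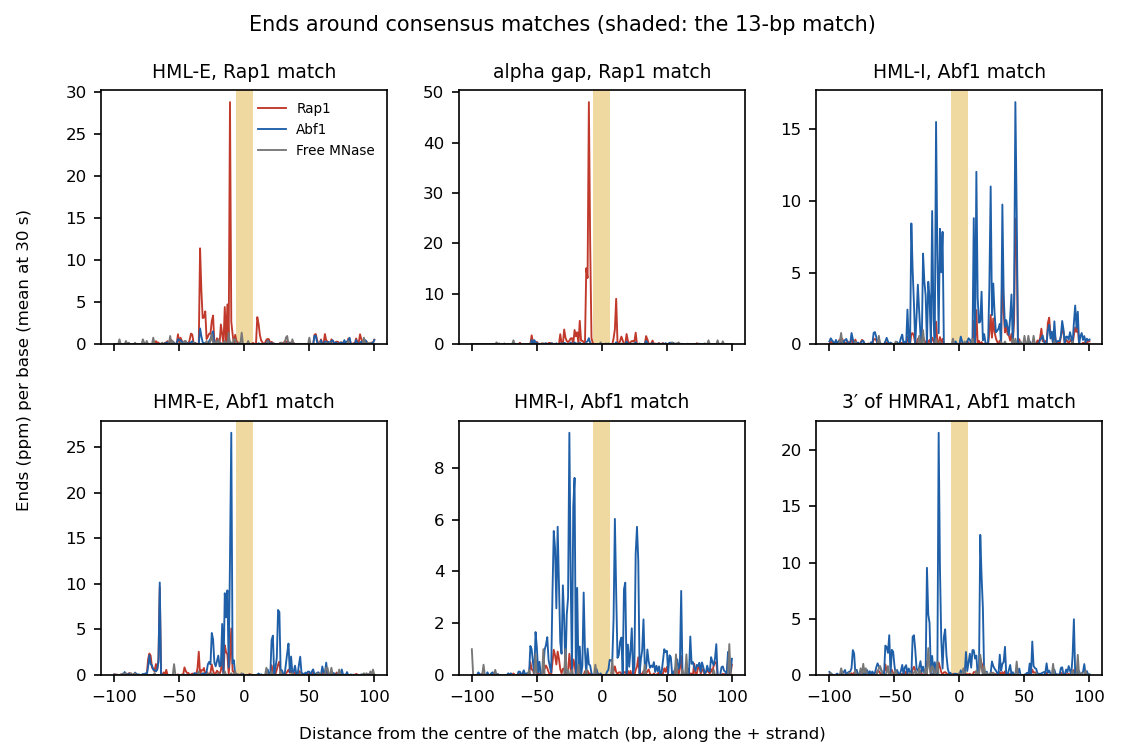
Ends in ppm per base at 30 s around printed matches of the silencers and gaps, against distance from the match centre in bp, for Rap1 and Abf1 (mean of 3 replicates each) and free MNase (1 library), with the 13-bp match shaded. The shaded stretches are nearly empty, and the flanking peaks reach 48.0 ppm for Rap1 in the alpha gap and 26.6 for Abf1 at HMR-E.

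The time courses are described without a test, since each time except 30 s had 1 library. Each value is a share of the nuclear ends of its library, so a lower value at a later time need not mean fewer cuts there. At HML-E Rap1 gave 6.60 ppm per 50 bp without calcium, 10.8 at 10 s, 15.0 at 20 s, 17.2, 24.1 and 20.6 in the replicates at 30 s, 21.0 at 40 s, 20.0 at 2.5 m, 11.9 at 10 m and 8.09 at 20 m. In the alpha gap Rap1 gave 2.56 without calcium, 20.2 at 10 s, 29.1 at 20 s, 34.0 at 40 s, 23.8 at 2.5 m and 6.23 at 20 m. In the Rap1 library without calcium 17.4% of nuclear fragments were distinct. The share of Rap1 ends was thus high within seconds at both elements and lower at the last times given.

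At HML-I Abf1 gave 4.76 without calcium, 44.1 at 10 s, 48.1 at 20 s, 40.0 at 40 s, 32.9 at 2.5 m, 15.2 at 10 m and 10.9 at 20 m. At HMR-E Abf1 gave 3.98 without calcium, 25.2 at 10 s, 25.2 at 20 s, 25.4 at 2.5 m and 7.48 at 20 m. At HMR-I Abf1 gave 4.33 without calcium, 11.3 at 10 s, 12.4 at 20 s, 17.4 at 40 s, 28.6 at 2.5 m and 10.5 at 20 m. The 10 s library thus lay within the range of the 30 s replicates at HML-I, 36.7 to 47.6, and below that range at HMR-E, 26.6 to 48.1, and at HMR-I, 17.9 to 38.6. Replicates 2 and 3 at 30 s, from another run than the libraries from 10 to 60 s, lay above every other Abf1 time at HMR-E and HMR-I.

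Abf1 at HML-E and Rap1 at HMR-I, whose closest matches for that factor had 2 and 4 mismatches (as 99.99% and 86.9% of windows have or better), were highest at 5 and 10 m. At HML-E Abf1 gave 1.95 at 10 s, 4.00 at 60 s, 10.5 at 2.5 m, 13.3 at 5 m and 8.29 at 20 m, and at HMR-I Rap1 gave 2.57 at 10 s, 6.59 at 60 s, 10.5 at 2.5 m and 12.6 at 10 m. In the gap between HMRA2 and HMRA1 Rap1 gave 4.54 at 10 s, 9.93 at 60 s, 12.8 at 2.5 m and 16.3 at 10 m. At 20 m the Rap1 and Abf1 libraries lay close together at all 4 silencers, with 8.09 and 8.29 at HML-E, 9.53 and 10.9 at HML-I, 7.62 and 7.48 at HMR-E and 9.41 and 10.5 at HMR-I. The libraries up to 60 s and those from 2.5 m on carry different run codes in the labels for Rap1, Abf1 and Reb1, so that across that step time cannot be told apart from run. The libraries without calcium of Abf1 and Reb1 share the run code of the later times, so that the step to 10 s is tied to run for these factors too, whereas that of Rap1 shares the run code of its libraries from 10 to 60 s.

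**Figure D5:**
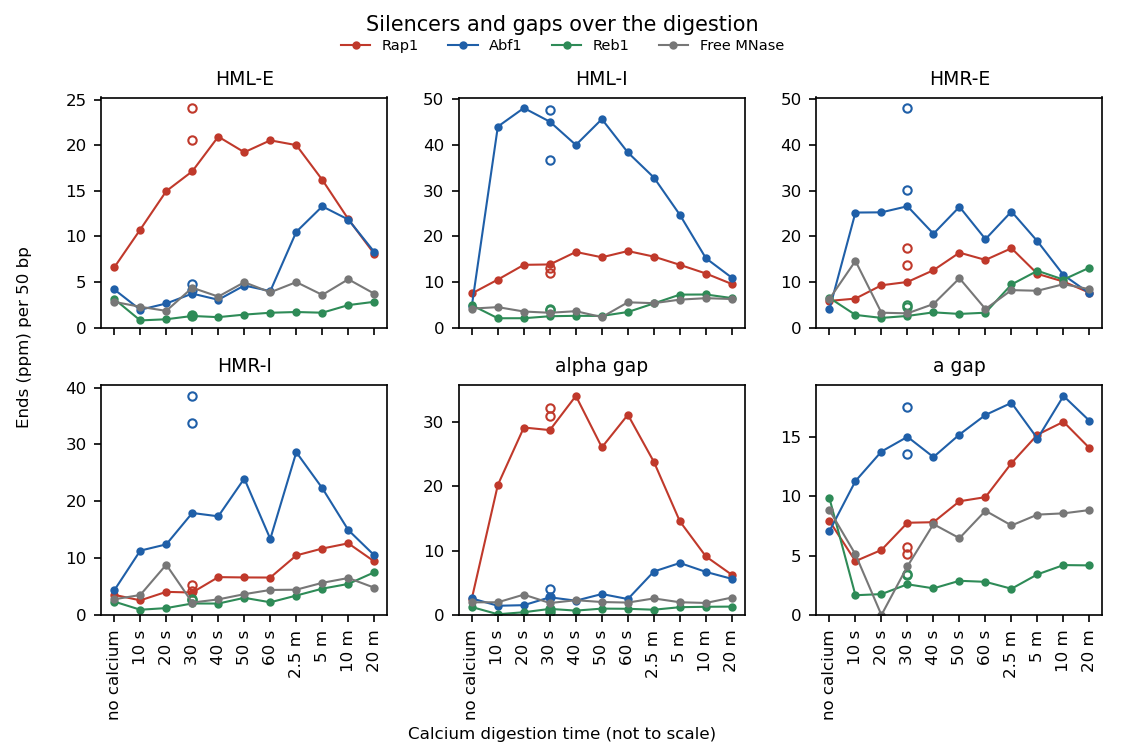
Ends in ppm per 50 bp at the 4 silencers with flanks and the 2 gaps from no calcium to 20 m, with 1 line each for Rap1, Abf1, Reb1 and free MNase; the 30 s point on each line is replicate 1 and open circles are replicates 2 and 3. Rap1 at HML-E and in the alpha gap and Abf1 at HML-I are high from 10 s on, and the lines of Rap1 and Abf1 lie close together at the silencers at 20 m.

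Reb1 reached its highest value among the silencers at HMR-E, with 2.76 ppm per 50 bp at 10 s, 2.53, 4.53 and 4.97 at 30 s, 9.42 at 2.5 m and 13.1 at 20 m. In the Reb1 library at 10 s 12.4% of nuclear fragments were distinct. Free MNase gave 14.6 at HMR-E at 10 s (95% interval 12.4 to 17.0), a library in which 24.3% of nuclear fragments were distinct, and between 3.10 and 10.8 at the other times, including 6.25 without calcium. The 20 s library of free MNase, with 60071 ends, had 1 to 3 ends at each of the silencers and is not described further. Over the other times free MNase stayed between 2.28 and 6.43 at HML-I and between 1.86 and 2.71 in the alpha gap.

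Fusions of another geometry were each sequenced in 1 library a condition. Abf1 with the short linker gave 3.25 ppm per 50 bp at HML-E, 35.0 at HML-I, 21.2 at HMR-E and 19.9 at HMR-I at 30 s, and 7.57, 19.3, 11.9 and 13.4 at 5 m. Against these, Abf1 with the longer linker gave 3.73 to 4.81, 36.7 to 47.6, 26.6 to 48.1 and 17.9 to 38.6 at 30 s, and 13.3, 24.7, 18.9 and 22.3 at 5 m. HML-I was thus the highest and HML-E the lowest of the 4 with the short linker, as in the mean of the longer linker. Reb1 gave 4.97 at HML-I with the short linker and 6.62 with the N-terminal fusion at 30 s, against 2.47 to 4.07 with the longer linker, and at HMR-E it gave 3.31 and 8.38, against 2.53 to 4.97.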

How the data were processed

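Members and lists were chosen with earlier results of these data known. The authors selected small DNA, sequenced it from both ends for 25 cycles and mapped the pairs with Novoalign 2.08.03 to sacCer3. The deposited values are the chromosome, start and end of each mapped fragment, with no score and no normalization. From these, both ends of every fragment were counted (each X-ChIP-seq fragment by its centre), identical fragments included, and divided by the nuclear ends outside chromosome XII from 450001 to 490000. ChEC-seq libraries held 60071 to 13259292 such ends (median 6214736), and 95% intervals are exact Clopper-Pearson, covering counting error only. Values are given in ppm. Nuclear 50-bp bins with a mean of at least 1 ppm over the 10 libraries at 30 s were tested with limma 3.58.1 in R 4.3.3 (trend, log2 with pseudocount 0.5, 1 shared fit, no covariate). For elements an exact two-sided permutation test on log2(ppm per 50 bp + 0.5) was used, also in R. Counts and intervals were computed with Python 3.11.15 and scipy 1.17.1. SE is the standard error of the difference. The script was tested on simulated data.

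The elements named are the silencers, the genes and gaps between them, other annotated genes of the windows, and each factor's highest bin of each window. Bins singled out beside these, and the 100-bp flanks of silencers, were chosen after their values were seen. All named bins were picked from the libraries that were tested, so the p-values of single bins do not allow for the choice. Uniqueness was judged with words of 25 bases, and both strands were searched for each consensus. Alternatives were pseudocounts of 0.1 and 2, no filter, the authors' scale (ends over all ends, times positions with an end), equal median bins, identical fragments counted once, a replicate block, each library left out, and the run code as a term. Labels give every sample a group.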

Additional observations from a re-analysis of the deposited data

How the results depend on the processing

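At the 4 silencers and both gaps Rap1 minus Abf1 kept its direction under every alternative run. Counts of called bins moved by over 1.5 times as follows, all of 176 bins or as many as passed the filter. With pseudocount 2, Rap1 minus Abf1 higher was 15 (23 in the report), Rap1 minus Reb1 49 higher and 2 lower (79 and 4), Abf1 minus Reb1 lower 1 (4) and Reb1 minus free MNase higher 2 (7). Scaled to an equal median bin, Rap1 minus Abf1 was 40 higher and 36 lower (23 and 66), and minus free MNase Rap1 was 99 and 3 (48 and 51), Abf1 lower was 6 (43) and Reb1 was 26 and 22 (7 and 91). On the authors' scale Abf1 minus Reb1 lower was 2, Rap1 minus free MNase 30 higher and 80 lower, and Reb1 minus free MNase higher 3. With identical fragments counted once Reb1 minus free MNase higher was 17. With the run code as a term, chosen after seeing the data, Rap1 minus Reb1 lower was 7, Abf1 minus Reb1 lower 2, Abf1 minus free MNase lower 18 and Reb1 minus free MNase higher 4. The cause of these shifts was not tested. For the tRNA gene YNCC0014W, Rap1 minus Abf1 was 0.33 on the median-bin scale and 0.026 with identical fragments counted once, against -0.34.

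Leaving out 1 library at a time gave 20 to 24 higher and 61 to 71 lower bins in Rap1 minus Abf1, 74 to 83 and 4 to 6 in Rap1 minus Reb1, 108 to 116 and 2 to 4 in Abf1 minus Reb1, 41 to 49 and 46 to 53 in Rap1 minus free MNase, 61 to 69 and 38 to 47 in Abf1 minus free MNase, and 4 to 12 and 90 to 94 in Reb1 minus free MNase. The count of 2 was without Reb1 replicate 2. Of the log2 differences of elements, 864 of 864 stayed within the replicate spread when a library was left out. Under the other alternatives named in the processing, the run code aside, 262 of 672 moved beyond it and a further 2 were counted as changing sign. A change of sign was counted only between 2 factors whose libraries did not overlap. Differences from free MNase could change sign without being counted so. With the run code as a term 48 of 96 moved beyond the replicate spread.

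With the replicate block, Rap1 minus Abf1 had 24 higher and 66 lower bins and Reb1 minus free MNase 5 and 94, and no count moved by over 1.5 times. The numbers did not pair the libraries: deviations of same-numbered libraries correlated between -0.04 and 0.25. Depth limits the free MNase library at 20 s, and only 90 of the 190 bins are unique in sequence.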

Other observations

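The Abf1 MNase-X-ChIP-seq library, a single library of crosslinked and immunoprecipitated fragments for which no input is used here, was counted by fragment centres and set against its own genome mean. Coverage was 0.857 times the mean at HML-E with flanks, 1.10 times at HML-I, 0.516 times at HMR-E and 0.963 times at HMR-I. The HML copy of the HMLALPHA2 to HMLALPHA1 gap stood at 0.365 times the mean, and the HML and MAT copies together at 0.644 times. The HMRA2 to HMRA1 gap stood at 1.49 times and HMRA1 at 2.20 times, where HMR and MAT cannot be told apart, and the tRNA gene YNCC0014W at 4.38 times. The highest of the silencers thus stood at 1.10 times the mean of this library, and how much of each value is Abf1 was not tested.

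Reb1 at 20 m gave 17.6 ppm per 50 bp at the tRNA gene YNCC0014W, against 11.3 with Abf1, 8.60 with Rap1 and 7.39 with free MNase at the same time, each in 1 library and in sequence with no unique position.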
